A study of Homo sapiens with 4 samples.

Results

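The genes described are 59 protein-coding targets that genome-wide studies of p53 have reported in addition to its best-known targets, such as ATF3, PRDM1, GPX1 and TP73. They were taken as a given list of symbols, chosen with earlier results of these data known. All 59 matched among the 20037 protein-coding genes on chromosomes 1 to 22, X and Y of the RefSeq annotation of GRCh38.p14. A gene was counted as marked when a peak of a deposited list lay inside the span of the gene or within 10 kb of it. The peaks came from chromatin immunoprecipitation with sequencing (ChIP-seq), which reads out the DNA that an antibody to p53 pulls down. The cells were HCT116, a colorectal cancer line, grown as spheroids at passages 13 to 18 in serum-free medium with EGF and bFGF (20 ng/ml of either). One group carried the genotype p53-R273H and the other was the wildtype control (ctrl-19-7). Each group had 1 ChIP library with the antibody DO1 and 1 input library without antibody, and 1 peak list of each ChIP library was analysed here. How R273H was introduced, whether either group is a single clone, and whether p53 was activated by any treatment are not stated in the labels. A difference between the lists compares 1 library with 1 library and has no replicates behind it, and binomial intervals cover counting error alone. Read depth is not known from peak lists.

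p53 is a transcription factor that acts as a tetramer and binds DNA through a pair of 10-base half-sites, each with a C and a G at fixed places around a core of A and T bases. In cells under stress it is known to switch on genes that stop the cell cycle, start apoptosis, repair DNA or change metabolism. The arginine changed in R273H contacts DNA directly, and R273H is one of the recurrent p53 changes in colorectal cancer. The targets described here extend that programme to transcription factors, signalling proteins, secreted factors and mitochondrial enzymes.

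The DNA at the marked genes is shown first where a RefSeq promoter window lay at least partly under a peak. A window runs from 250 bases before to 50 after an annotated start (GRCh38.p14), and the 250 bases before the start are printed. The stretch on chr6:63573569-63573818, minus strand, lies before the start of the uncharacterised gene LOC124901228 inside the span of PTP4A1. All 250 bases lay under the wildtype peak and 91 under the R273H peak. Capitals mark a stretch of 20 bases that fits a complete p53 site, 1 base off the consensus and with no spacer.
LOC124901228 at PTP4A1: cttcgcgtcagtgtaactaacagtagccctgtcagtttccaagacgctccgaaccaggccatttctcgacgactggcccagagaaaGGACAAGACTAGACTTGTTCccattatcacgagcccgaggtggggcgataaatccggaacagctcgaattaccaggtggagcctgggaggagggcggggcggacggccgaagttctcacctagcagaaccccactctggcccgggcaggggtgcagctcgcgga
All 20 of these bases lay under the wildtype peak, and 5 lay under the narrower R273H peak. The stretch on chr6:106098691-106098940, plus strand, lies before an internal start of PRDM1. Capitals mark the 200 bases under the R273H peak, all of which the wildtype peak also covered.
PRDM1: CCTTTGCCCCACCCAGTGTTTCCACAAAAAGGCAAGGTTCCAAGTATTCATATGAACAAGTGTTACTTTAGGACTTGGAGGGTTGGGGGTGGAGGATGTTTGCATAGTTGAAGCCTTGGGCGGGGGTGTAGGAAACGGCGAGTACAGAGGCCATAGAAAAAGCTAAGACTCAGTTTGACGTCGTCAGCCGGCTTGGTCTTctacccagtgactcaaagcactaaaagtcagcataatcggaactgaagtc
The stretch on chr3:49358354-49358603, minus strand, lies before the start of GPX1. The wildtype peak covered its first 51 bases, and capitals mark an exact p53 half-site that lay between this peak and the start, beginning 177 bases before the start.
GPX1: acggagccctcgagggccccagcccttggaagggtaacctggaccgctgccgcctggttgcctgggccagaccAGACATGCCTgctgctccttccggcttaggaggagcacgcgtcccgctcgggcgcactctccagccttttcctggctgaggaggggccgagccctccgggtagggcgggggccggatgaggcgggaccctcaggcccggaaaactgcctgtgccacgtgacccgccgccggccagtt

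Complete sites in the windows of other members are shown next, and none of them lay under a peak. Of the 90 member windows, 1 touched an R273H peak and 2 a wildtype peak, so few could hold a site under a peak. Capitals mark the 2 half-sites and lower case the spacer, and each half-site was allowed 1 mismatch outside its fixed C and G.
PANK1, chr10:89645238-89645265, minus strand: GGGCATGCTCagtggcggGGACCAGTCT
GLS2, chr12:56488290-56488314, minus strand: GAGCCAGCTTtaaagGGGCAGGCCC
SYTL1, chr1:27341818-27341840, plus strand: TAACTTGCTTtcaAAGCGAGTTC
TP73, chr1:3690596-3690615, plus strand: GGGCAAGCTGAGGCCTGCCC
The PANK1 site was 1 base off the consensus in all, and the others were 2 bases off. A further GLS2 match lies after its start and is not printed. The TP73 site was 15252 bp from the nearest peak, and PANK1, GLS2 and SYTL1 had no peak within 10 kb in either list.

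More of these genes were marked in the wildtype list than in the R273H list, and both counts stood above the level over all protein-coding genes. In the wildtype list 11 of 59 genes were marked, 18.6% (95% exact binomial interval 9.69 to 30.9), against 4.83% of all protein-coding genes. In the R273H list 5 of 59 were marked, 8.47% (2.81 to 18.7), against 3.09%. The lower bound of the R273H interval lay below that background and the lower bound of the wildtype interval above it. The members were chosen with earlier results of these data known, so these intervals describe the counts and do not test an excess. Among other protein-coding genes in the members' length classes the shares were 4.96% and 3.19%, which would give 2.93 and 1.88 of 59 genes. ATF3, PRDM1 and PTP4A1 were marked in both lists, 5.08% of the members (1.06 to 14.1) against 1.28% of all protein-coding genes, which lies within the interval. ZNF365 and STEAP3 were marked in the R273H list only, 3.39% (0.413 to 11.7) against 1.81%, so the share was not distinguishable from the background at this number of genes. FAM210B, FHL2, GPX1, HHAT, MAD1L1, NUPR1, RAP2B and TP73 were marked in the wildtype list only, 13.6% (lower bound 6.04) against 3.54%. The other 46 genes had no peak in either list, 78.0% against 93.4% of all protein-coding genes. No test between the genotypes was possible.

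Scores are the authors' own, given separately for each list on a scale that no label states, and are used only to describe, rank or filter peaks within their list. The 5 R273H peaks at these genes scored between 66.03 and 312.64, all above the median of 61.94 over that list. The 14 wildtype peaks scored between 51.6 and 923.65, with a median of 85.52 against 64.89 over that list. With only peaks scoring at least 100, the wildtype list marked 6 of 59 genes (ATF3, GPX1, HHAT, PRDM1, PTP4A1 and RAP2B) against 1.59% of all protein-coding genes. The R273H list then marked 3 (ATF3, PRDM1 and ZNF365) against 1.07%. This minimum kept 27.5% of the wildtype and 19.5% of the R273H peaks, so these counts are each read against their own background and not against each other. The wildtype peaks at FAM210B, NUPR1 and TP73 scored below the median of that list, and FHL2 and MAD1L1 each had peaks on both sides of it.

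**Figure D1:**
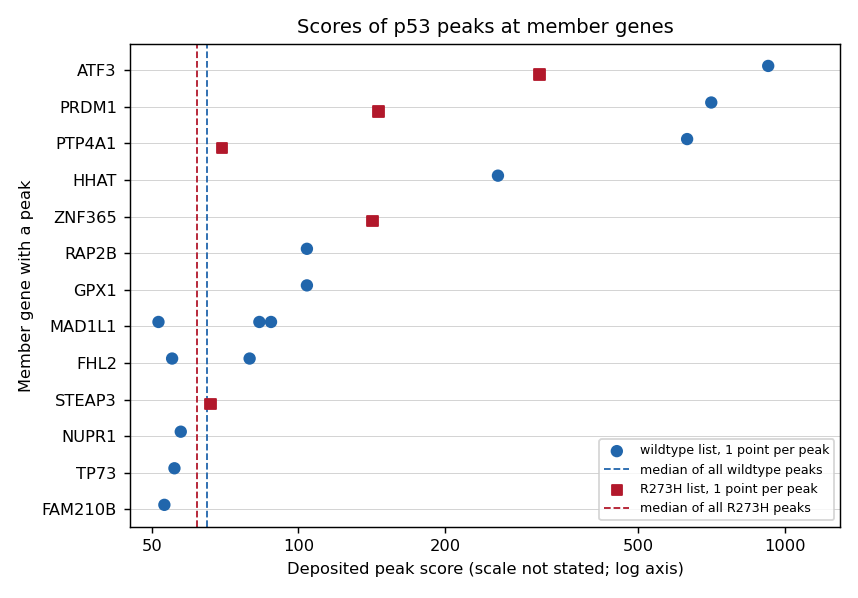
Deposited score of each peak inside or within 10 kb of the 13 marked genes (log axis), with blue circles for the wildtype list, red squares for the R273H list and dashed lines for the median of each whole list. ATF3, PRDM1, PTP4A1 and HHAT hold the highest wildtype scores, and FAM210B, TP73 and NUPR1 lie below the wildtype median; the lists were scored separately.

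Among the 17 transcription regulators, 5 had a wildtype peak and 3 an R273H peak, where the shares of other genes of the same lengths were 4.87% and 3.03%. ATF3, a stress-induced transcription factor of the bZIP family, had the highest-ranked peak in both lists among the members. Its R273H peak (chromosome 1, 212596332 to 212596848) scored 312.64 and ranked 113 of 2008. It lay wholly within the wildtype peak (212596318 to 212596866), which scored 923.65 and ranked 111 of 2059. The midpoints were 2 bp apart. Both peaks lay inside the gene, between its 2 listed starts, with midpoints 18428 and 18426 bp upstream of the internal one. No other gene lay within 10 kb of them.

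PRDM1 encodes the transcriptional repressor BLIMP-1. Its R273H peak (chromosome 6, 106098458 to 106098890) scored 146.06 and ranked 250. The wildtype peak (106098111 to 106098967) scored 705.49, ranked 147 and was 857 bp wide against 433 bp. The wildtype peak covered the internal start at 106098941, and the R273H peak ended 51 bp before it. No other listed start of a marked member lay under a peak.

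ZNF365, a zinc finger protein gene, was marked in the R273H list only, by a peak (chromosome 10, 62369904 to 62370177) with its midpoint 4328 bp upstream of the start. It scored 142.2, ranked 261 in the list and 39 among the 1568 R273H peaks without an overlapping wildtype peak. The peak also overlapped the lncRNA gene LOC283045, so the nearest gene of any type is not ZNF365. The nearest wildtype peak was 1095800 bp from it.

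FHL2, a LIM-domain cofactor of transcription, had a pair of neighbouring wildtype peaks (chromosome 2, 105404281 to 105404478, score 79.42, and 105404510 to 105404634, score 55.04), 4712 and 4905 bp upstream of an internal start. NUPR1, a small stress-induced chromatin protein, had a wildtype peak inside the gene (chromosome 16, 28535926 to 28536420) with a score of 57.34 and rank 1392. TP73 encodes p73, the p53 relative that shares its DNA-binding fold. Its wildtype peak (chromosome 1, 3674997 to 3675344) scored 55.65, ranked 1501 and lay inside the gene, 15502 bp upstream of an internal start. An R273H peak lay 68.8 kb from the gene. BCL6, BTG1, E2F7, GRHL3, HES2, HIC1, IER5, PML, VDR, ZNF337 and ZNF561 were marked in neither list.

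Among the 18 signalling genes, 4 had a wildtype peak and 1 an R273H peak. The shares of other genes of these lengths were 4.97% and 3.34%, so the single R273H gene is near the background. PTP4A1 encodes the tyrosine phosphatase PRL-1. Its R273H peak (chromosome 6, 63573728 to 63573936) scored 69.67 and ranked 749. The wildtype peak (63573505 to 63574032) scored 629.32 and ranked 170. All 209 bp of the R273H peak lay within the wildtype peak, of which they made up 39.6%. The wildtype peak stood within the top 8.26% of its list and the R273H peak within the top 37.3%, whereas ATF3 stood within the top 5.39% and 5.63%. Ranks in lists of unequal length and content do not measure a change. The midpoints lay 1352 and 1288 bp downstream of the nearest PTP4A1 start. The wildtype peak also touched LGSN and LOC124901228, and both peaks overlapped LOC128125822, so neither peak can be assigned to PTP4A1 alone.

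HHAT, which attaches palmitate to hedgehog proteins, had the highest wildtype score among the genes marked in 1 list only. Its peak (chromosome 1, 210465853 to 210466149) scored 257.16, ranked 319 overall and 33 among the 1622 wildtype peaks without an R273H partner. It lay inside the gene, which is 349.0 kb long, and 136635 bp downstream of the nearest listed start. RAP2B, a RAS-family GTPase gene, had a wildtype peak (chromosome 3, 153160755 to 153160973, score 104.15, rank 553) with its midpoint 1362 bp upstream of the start. MAD1L1, a spindle checkpoint gene of 417.2 kb and the longest member, had 3 wildtype peaks (chromosome 7, 1896558 to 1896694, 2169749 to 2169909 and 2169912 to 2170174) with scores of 51.6, 87.88 and 83.17, none within 10 kb of its start. ARHGEF3, CDIP1, DDIT4, DDR1, DUSP5, DUSP14, HRAS, IKBIP, LAPTM5, ORAI3, PLCL2, TLR3, TNFAIP8 and TRAF4 were marked in neither list. They include the apoptosis gene CDIP1, the mTOR inhibitor gene DDIT4 and the MAP kinase phosphatase genes DUSP5 and DUSP14.

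Among the 9 genes of metabolism and mitochondria, the wildtype list marked 2 and the R273H list 1, against 4.2% and 2.4% of other genes of these lengths. With 9 genes, these counts are too small to set the group apart. GPX1 encodes the glutathione peroxidase that removes hydrogen peroxide. Its wildtype peak (chromosome 3, 49358553 to 49358767) scored 104.15, tied with the RAP2B peak at rank 553, and lay 200 bp from the gene on the side of its start and 378 bp from RHOA. The nearest R273H peak was 2840 kb from the gene. FAM210B, a mitochondrial membrane protein gene, had a wildtype peak inside the gene (chromosome 20, 56367352 to 56367713, score 53.06, rank 1726), which also lay within 10 kb of AURKA. STEAP3, a metalloreductase gene of iron handling, was marked in the R273H list only, by a peak (chromosome 2, 119218347 to 119218539, score 66.03, rank 838) with its midpoint 5391 bp upstream of the start. The nearest wildtype peak was 3254 kb from STEAP3. CCDC90B, CROT, GLS2, ISCU, NTPCR and PANK1 were marked in neither list, among them GLS2, the p53-responsive glutaminase gene, and PANK1, a coenzyme A synthesis gene.

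None of the 8 genes of secreted and surface proteins was marked in either list. These were CPE, IGFBP3, PGF, PLXNB2, SERPINB5, TGFA, TSKU and VCAN, which include the growth factor genes TGFA and PGF, IGFBP3, whose product binds insulin-like growth factors, and SERPINB5, which encodes maspin. None of the 7 genes of the cytoskeleton and protein turnover was marked either. These were CYFIP2, FBXO22, FBXO32, LIMA1, PADI4, SAC3D1 and SYTL1. At the share of other genes of the same lengths, 5.46% and 5.54% in the wildtype list, fewer than 1 marked gene would be counted in either group, so these empty groups do not set them apart.

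Peaks at the marked genes lay both near annotated starts and far from them. Of the 14 wildtype peaks, 12 lay inside the gene, and 9 of 59 genes had a wildtype peak that touched the span against 3.24% of all protein-coding genes. Of the 5 R273H peaks, 3 lay inside the gene, those at ATF3, PRDM1 and PTP4A1. These 3 of 59 genes are 5.08% of the members, against 2.08% of all protein-coding genes with an R273H peak that touched the span. The peaks at ZNF365 and STEAP3 were upstream of the gene, and with the limit at 2 kb no gene was marked in the R273H list only. Starts were listed for 52 of the 59 genes. Midpoints within 5 kb of a listed start were found for 3 of 5 R273H peaks and for 6 of the 13 wildtype peaks whose gene had a listed start. The wildtype peaks include neighbouring pairs at FHL2 and MAD1L1, with each peak counted separately. No such share over all peaks of a list is given here.

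**Figure D2:**
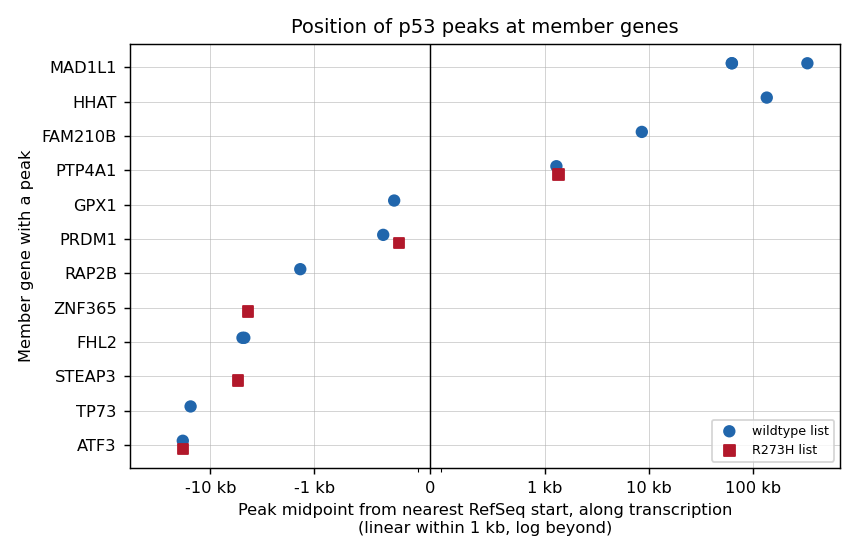
Distance from the nearest listed RefSeq start to the midpoint of each peak at 12 marked genes (linear within 1 kb, log beyond; negative values are upstream), with blue circles for the wildtype list and red squares for the R273H list. NUPR1 is not plotted; PRDM1 and GPX1 lie within 1 kb upstream of a start, and the peaks of HHAT and MAD1L1 lie from 62902 to 336319 bp downstream.

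Strong peaks shared by both lists lay beyond 10 kb of TGFA and IER5. For TGFA, a ligand of the epidermal growth factor receptor, the R273H peak (chromosome 2, 70596538 to 70597740) scored 3113.91 and ranked 2 of 2008. The wildtype peak (70596538 to 70597760) scored 3100. Both lay 42.7 kb upstream of the gene, and no protein-coding gene was nearer. For IER5, an immediate early response gene, the R273H peak (chromosome 1, 181134588 to 181135714) and the wildtype peak (181134593 to 181135805) both scored 3100 and lay 41.7 kb downstream of the gene, with 1122 bp in common. An lncRNA gene was closer in each case, LOC124907824 at TGFA and LINC01732 at IER5. The IER5 peak ranked 3 in the R273H list, tied among 3 peaks, and 22 wildtype peaks shared the score of 3100. IER5 was also the nearest protein-coding gene of its peaks, although the 10 kb rule leaves both genes unmarked.

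Weaker wildtype peaks lay 14.4 kb upstream of CROT, a peroxisomal carnitine acyltransferase gene (chromosome 7, 87330999 to 87331224, score 110.73), and 13.6 kb upstream of DDR1, a collagen receptor kinase gene (chromosome 6, 30866993 to 30867410, score 50.86). A gene of another type was closer to each of these peaks. The CROT peak overlapped the gene TP53TG1, so it cannot be assigned to CROT alone, and RN7SKP186 lay 2500 bp from the DDR1 peak. ISCU, an iron-sulfur cluster scaffold gene, was 21.3 kb from a wildtype peak, but that peak overlapped TMEM119. Counting each peak for its nearest protein-coding gene at up to 100 kb, 7 members had an R273H peak, 11.9% against 3.75% of all protein-coding genes. In the wildtype list 15 did, 25.4% against 5.38%. This rule was chosen after the data were seen, so these shares describe the lists and do not test an excess. The members it added to those within 10 kb were TGFA and IER5 in both lists, and CROT and DDR1 in the wildtype list.

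**Figure D3:**
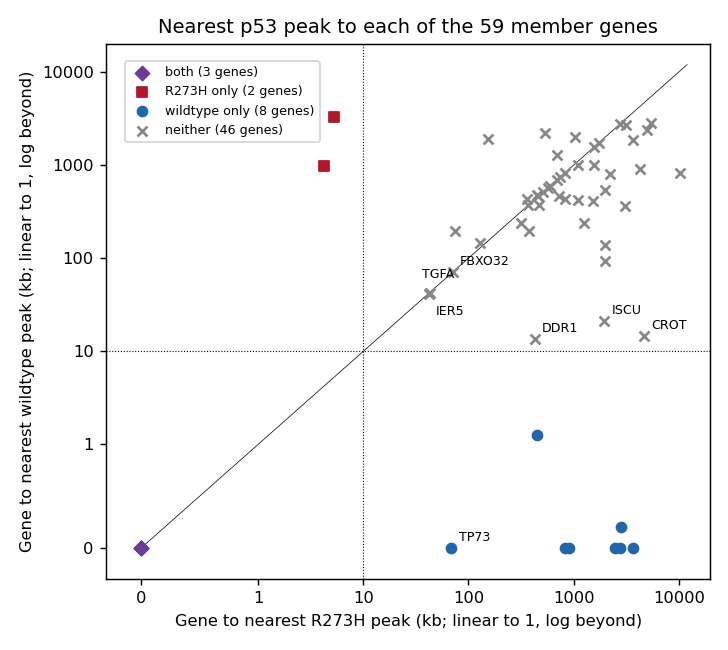
Distance from each of the 59 genes to its nearest R273H peak (x axis) and nearest wildtype peak (y axis), in kb, linear up to 1 kb and log beyond, with dotted lines at 10 kb and a diagonal at equal distances. The 3 genes marked in both lists coincide at 0, the 8 marked in the wildtype list only lie along the bottom, and TGFA and IER5 lie on the diagonal near 42 kb.

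Distances to the nearest peak were also read without a limit, as a description with no test. The median distance to the nearest wildtype peak was 428.7 kb (quartiles 42.2 to 945.0) for the 59 genes and 518.8 kb (179.5 to 1241) for other protein-coding genes weighted to the members' lengths. For the R273H list the medians were 825.6 kb (372.9 to 2001) and 899.2 kb (311.2 to 2070). The lower quartiles stood apart in the wildtype list, and in the R273H list the members' lower quartile was the higher of the pair. As the allowed distance grew from 0 to 100 kb, the members' share with a wildtype peak rose from 15.3% to 30.5%, and that of other genes of the same lengths from 3.42% to 16.5%. For the R273H list the shares rose from 5.08% to 16.9% and from 2.2% to 10.6%.

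**Figure D4:**
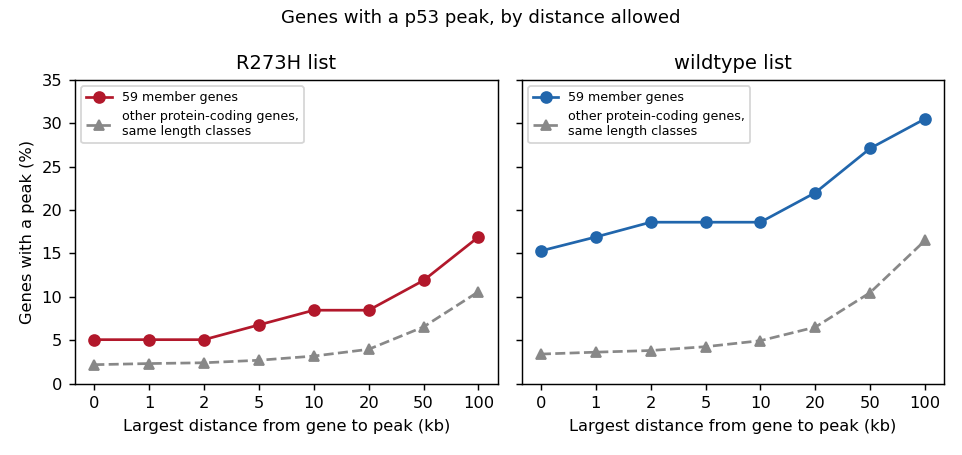
Share of the 59 genes (solid line) and of other protein-coding genes averaged over the members' length classes (dashed grey line) with a peak at up to 0 to 100 kb from the gene, for the R273H list (left) and the wildtype list (right). The wildtype line of the members stays between 15.3% and 30.5%, above the grey line at each distance, and the R273H lines are closer together.

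Gene length affects how often a peak falls near a gene, so the members were also read by length. Members had a median length of 28.1 kb and all protein-coding genes of 24.1 kb. In the longest of 5 equal classes of protein-coding genes (83.5 kb and over), 4 of 13 members were marked in the wildtype list against 8.24% of other genes, and 2 of 13 in the R273H list against 6.16%. In the shortest class (up to 6.43 kb), GPX1 and NUPR1 were marked among 9 members in the wildtype list, against 2.78% of other genes. No member in the first 2 classes (20 genes) or between 16.3 and 35.3 kb (13 genes) was marked in the R273H list. Among other genes of these classes the R273H shares were 1.9%, 2.28% and 2.35%. The 13 members of the middle class had no wildtype peak either, against 3.93% of other genes. At such shares and with so few members, these empty classes do not stand apart. The genes marked in both lists were 55.4 kb (ATF3), 67.1 kb (PTP4A1) and 117.2 kb (PRDM1) long.

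**Figure D5:**
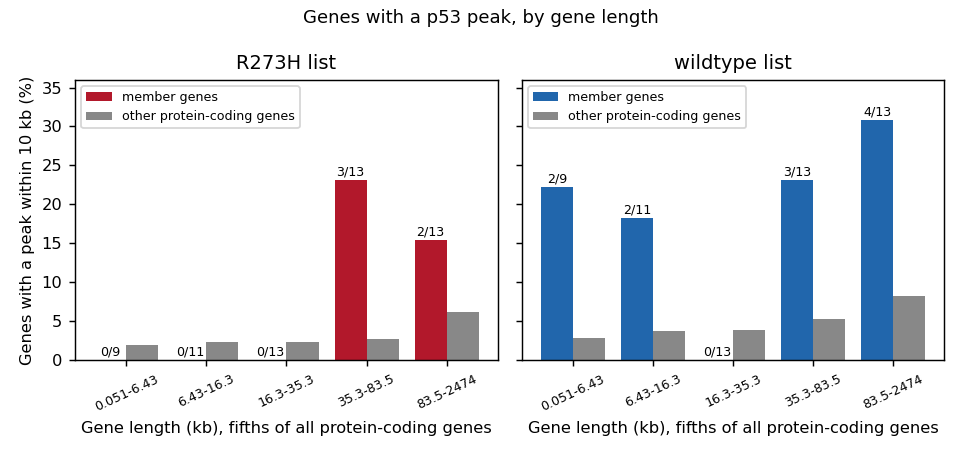
Share of members (coloured bars, with the number marked over the number in the class) and of other protein-coding genes (grey bars) with a peak inside or within 10 kb, in 5 classes of gene length, for the R273H list (left) and the wildtype list (right). Members were marked in the wildtype list in each class but the middle one, and in the R273H list in the longest 2 classes only.

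The p53 half-site was searched on both strands in the 90 promoter windows listed for 52 members. An exact match was present in 9 windows, 10.0%, against 6.22% of 22183 windows of protein-coding genes. The windows with a match belonged to GPX1, HHAT, RAP2B, PADI4, GRHL3, DDR1 (a pair of windows), PANK1 and ISCU, and none of the matches lay under a peak. A pair of half-sites with up to 1 mismatch in each and a spacer of at most 13 bases was present in 4 member windows, 4.44%, against 1.69% of all windows. These counts are small, some windows belong to the same gene, and neither share was tested against that of all windows. Over all protein-coding genes, an R273H peak touched 19 windows and a wildtype peak 43, in part or in full. Of these windows, 5 and 10 held an exact half-site, which need not itself lie under the peak. Matches describe the letters of these windows only, and most peaks of the members lay outside them.

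The best-known targets were marked more often than these further targets, in counts that were not tested against each other. Both sets of genes were chosen with earlier results of these data known, so the contrast is a description only. Of the 32 best-known targets, wildtype peaks marked 17 (53.1%) and R273H peaks 14 (43.8%). The shares of other genes of the same lengths were 4.32% and 2.62%. CDKN1A, PLK2, AEN, RPS27L and RRM2B had the highest R273H scores, and CDKN1A, PLK2, RPS27L, BBC3 and AEN the highest wildtype scores. The median of the highest score per marked gene was 474.2 for 17 best-known and 104.2 for 11 further targets in the wildtype list, and 254.3 for 14 and 142.2 for 5 in the R273H list. All 14 best-known targets with an R273H peak also had a wildtype peak, compared with 3 of 5 further targets and 257 of 620 among all protein-coding genes, and 5 genes are too few to set the further targets apart from that level. Among 20 regulators and partners of p53, the wildtype list marked 1, MDM4, which encodes a p53 inhibitor, by a peak with a score of 55.24. At the share of other genes of the same lengths, 6.21%, about 1 of 20 would be counted.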

How the data were processed

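p53 ChIP-seq was made from HCT116 spheroids, crosslinked for 5 minutes in 1% formaldehyde and sonicated for 10 minutes, per the labels' protocols. The submitters' processing notes name Bowtie 1.2.2, MACS, HOMER and hg38 but give them no roles. No source used here states the peak threshold or how the inputs entered. The deposited lists give each peak's position, name and score, as the authors' caller wrote them; the scale of this score is not stated. Each list was assigned to a ChIP library by the match of its name to the library title, since the description fields disagree (that of the wildtype ChIP library points to the R273H list). The lists held 2008 R273H and 2059 wildtype peaks. Lower peak numbers, 192 (8.73%) and 227 (9.93%) of those implied, were not analysed here, so a gene without a peak has none among those analysed.

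Genes, starts and promoter windows came from RefSeq for GRCh38.p14, the assembly of hg38; no exon positions were used, so exon, intron and untranslated region are not given. Distances run from the gene span, or from the peak midpoint to a listed start. Overlap meant at least 1 bp. Length classes were 5 equal parts of all protein-coding genes, and the level for other genes is the mean of their class shares over the members. Intervals are exact (Clopper-Pearson). Promoter windows were listed for 52 members, not for HIC1, NUPR1, PML, VDR, DUSP5, FBXO22 and FBXO32. Other distances, score minimums, overlap rules, gene assignments and motif mismatches were tried as alternatives. Peaks at marked members were all named, as were the 5 nearest to unmarked members, and the 5 highest scores of best-known targets per list. One result is not reported here. Members and lists were chosen with earlier results of these data known. In each of 5 simulations over 20037 genes, the 200 genes and 200 overlaps planted were all recovered, and counts matched bedtools 2.31.1. Python 3.11.15, pandas 2.3.3 and SciPy 1.17.1 were used.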

Additional observations from a re-analysis of the deposited data

How the results depend on the processing

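Of the 5 R273H and 11 wildtype members marked within 10 kb the R273H count moved under more settings than the wildtype count. With peaks inside the gene only, or within 2 kb, the R273H list marked 3 members and 0 were marked in it only. The 3 members are 5.08%, against 2.2% and 2.42% of other genes of the same lengths. Within 5 kb, 1 was marked in the R273H list only. Within 50 kb, 5 were marked in both lists. Within 100 kb the counts were 10 (R273H), 18 (wildtype) and 7 (both). The R273H and wildtype counts are 16.9% and 30.5% of members, against 10.6% and 16.5% of other genes of the same lengths. With peaks scoring at least 100 the counts were 3 (R273H) and 6 (wildtype), of which 1 was R273H only and 4 wildtype only. The shares of other genes of the same lengths were then 1.11% and 1.63%. A minimum at each list's median score left 5 wildtype only. A limit of 10 kb around the gene ends, leaving out the middle of long genes, gave 3 (R273H), 5 (wildtype), 1 (both, PTP4A1) and 4 (wildtype only). The R273H and wildtype counts are 5.08% and 8.47% of members, against 1.9% and 3.18% of other genes of the same lengths. ATF3 and PRDM1 dropped out, since their peaks lie inside the gene and over 10 kb from both ends. Counting each peak for its nearest protein-coding gene at up to 100 kb gave 5 marked in both lists. In each of these settings the members' share marked in the R273H list, and that in the wildtype list, stayed above that of other genes of the same lengths. For members marked in both lists or in 1 list only, no such share is given for these settings. PTP4A1 no longer counted as overlapping at a reciprocal 50%. Allowing 1 mismatch raised the member windows with a half-site from 9 to 50, and of all windows 44.2% then held one. The limits of 5, 20 and 100 kb, the gene ends and the 100 kb nearest-gene count were chosen after the data were seen. Depth is unknown, so a missing peak may lie just under the deposited minimum of about 50.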
